A study of Mus musculus with 3 samples.

Results

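CTCFL is the paralogue of the DNA-binding protein CTCF that is normally made in male germ cells, and its zinc fingers are very like those of CTCF. In a bidirectional promoter, 2 genes lie head to head on opposite strands, and transcription leaves the stretch between their transcription start sites (TSSs) in both directions. Such promoters are usually rich in G, C and CpG dinucleotides, and many of their genes serve DNA repair, mitochondria, RNA processing or other needs of every cell. The following data describe where CTCFL bound at such promoters, with which sequence, and at which gene pairs.

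CTCFL binding was mapped by ChIP-sequencing with the V5 antibody in transgenic mouse embryonic stem (ES) cells that carry a doxycycline-inducible, V5- and GFP-tagged CTCFL. The transgene stands under a TRE promoter in ROSA26-rtTA cells, so CTCFL was present on top of the CTCF that these cells make themselves. The induced cells were treated with doxycycline for 3 days and sorted for GFP, and the control for the V5 precipitation was cells of the same kind that were neither induced nor sorted, so that induction and sorting cannot be told apart. There was 1 library per condition, and the deposited list of 7436 CTCFL peaks gives positions only, without read counts or heights. The depth is therefore unknown, and all tests and intervals below cover the spread among peaks or promoters, not that between cultures. The list is longer than the set of CTCFL sites that the study describes, and how the sets relate is not given in the sources used here. A CTCF library of the same series was not analysed here.

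A peak was taken as a member when its centre lay from 2 kb upstream to 1 kb downstream of the TSSs of 2 different protein-coding genes that are transcribed away from each other and start at most 1 kb apart. TSSs came from GENCODE on mouse build mm9, which is also the build of the peaks. This selected 155 of 7436 peaks, or 2.08% (95% Wilson interval 1.78 to 2.43), and 6.61% of the 2344 peaks that lay in a promoter by the same distances. The other 2189 promoter peaks are called unidirectional here. The 155 peaks lay at 154 bidirectional promoters on 20 chromosomes, and only the Hscb/Chek2 promoter held 2 of them. By the letter of the rule the last pairs inside were Abca17/Abca3, with TSSs 994 bp apart, and Mcm7/Ap4m1, with 985 bp, and the first outside was 5330417C22Rik/1700013F07Rik, with 1015 bp. Gene pairs are written with the minus-strand gene first, by the symbols of the GENCODE release, and later symbols from RefSeq GRCm38.p6, where 300 of 308 genes were found, are added in brackets for genes whose role is described.

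Many of these peaks hold a stretch of 14 bases that fits the consensus CCNNNAGGNGGCGC, in which N stands for any base. This consensus was read from the motif logo of the study. The study describes the sequences bound by CTCF and CTCFL as nearly identical, with differences in base preference at some positions. Counting a stretch with at most 1 mismatch at the 10 fixed positions as a match, 74 of 155 peaks held one, and 18 of these fitted exactly. In 7 of those 18 the exact match lay between the TSSs. These 7 are shown with 8 bases on either side, written 5′ to 3′ on the strand on which the consensus reads, with the match in capitals. All coordinates are mm9, and the bases are those of the reference genome.

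Nae1/Car7 (chr8:107058553-107058582, plus strand): gcgcgcagCCAGTAGGGGGCGCcgacgctg
Zscan29/Tubgcp4 (chr2:120996912-120996941, minus strand): ccgcggagCCGCGAGGAGGCGCcggtgccg
Dram1/Gnptab (chr10:87841858-87841887, plus strand): ccctccgcCCTCTAGGTGGCGCtggcgact
Gabrg3/Gm9962 (chr7:64642620-64642649, plus strand): tggggatcCCGCAAGGAGGCGCagaagggg
BC046404/Mmgt2 (chr11:62462254-62462283, minus strand): cacagtgtCCGGCAGGGGGCGCtgcaccag
Foxa3/Sympk (chr7:19608990-19609019, minus strand): cttgagatCCCGCAGGGGGCGCcccaatcc
Tas1r1/Nol9 (chr4:151413360-151413389, plus strand): gacgccggCCGGGAGGGGGCGCcagccgcc

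All of these share the CC, AGG and GGCGC blocks, as the consensus demands, whereas the 3 bases after CC and the base between the 2 G-rich blocks vary. The exact matches of 3 further pairs are shown because their centres lie downstream of a TSS and not between the pair. In these the same blocks stand with other bases in the free positions.

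2310004I24Rik/Sco1 (chr11:66866161-66866190, plus strand): agaggtggCCCAAAGGAGGCGCggtctcct
Dtl/Ints7 (chr1:193399863-193399892, minus strand): agctgccgCCACTAGGTGGCGCcactcccc
Mtx1/Thbs3 (chr3:89020001-89020030, minus strand): cctatgtcCCACCAGGTGGCGCaagggaga

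The match of Nae1/Car7, the only pair among these 155 that holds a gene named by the study, is CCAGTAGGGGGCGC with an A at position 3. Nae1 encodes a subunit of the enzyme that activates the ubiquitin-like protein NEDD8, and Car7 encodes a carbonic anhydrase. Its peak, at chr8:107058144-107058966, was 823 bp wide, the twelfth widest of the 155. Its centre lay 8 bp from the midpoint of 2 TSSs that are 106 bp apart, and the exact match lay 20.5 bp from that midpoint. Both thus fell between the TSSs. The peak was wider than this stretch, so the binding is not placed within it. Of the other genes the study named, Bag5 has a bidirectional promoter, but the listed peaks near the gene lie outside the interval of the rule, and Stra8, Prss50, Gal3st1, Vps18, Irg1, Twf2, Tctn2, Rapgef1 and Uqcrc1 do not start at a bidirectional promoter by this rule.

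The whole stretch between the TSSs can be shown for 4 promoters in which it is at most 300 bases long, holds a match and overlaps no annotated exon. They are written on the plus strand, with the match in capitals.

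Gabrg3/Gm9962 (chr7:64642559-64642673, plus strand): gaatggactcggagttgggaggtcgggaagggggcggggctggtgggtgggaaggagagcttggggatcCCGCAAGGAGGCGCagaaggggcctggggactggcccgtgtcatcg
Trove2/Uchl5 (chr1:145624199-145624407, plus strand): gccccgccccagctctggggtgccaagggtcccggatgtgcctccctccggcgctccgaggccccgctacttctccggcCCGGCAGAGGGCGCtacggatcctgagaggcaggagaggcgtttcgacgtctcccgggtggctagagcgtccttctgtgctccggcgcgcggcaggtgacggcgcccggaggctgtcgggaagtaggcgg
Acin1/1700123O20Rik (chr14:55304898-55305007, plus strand): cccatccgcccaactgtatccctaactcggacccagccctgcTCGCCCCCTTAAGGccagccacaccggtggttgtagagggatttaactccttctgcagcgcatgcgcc
Anxa5/1810062G17Rik (chr3:36374766-36375056, plus strand): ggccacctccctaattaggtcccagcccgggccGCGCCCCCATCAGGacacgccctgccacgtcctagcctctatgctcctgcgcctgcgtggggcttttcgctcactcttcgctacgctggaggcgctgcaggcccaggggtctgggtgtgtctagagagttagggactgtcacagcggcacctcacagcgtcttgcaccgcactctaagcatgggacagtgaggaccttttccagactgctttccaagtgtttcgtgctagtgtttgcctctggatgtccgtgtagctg

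Gabrg3 encodes a subunit of the receptor for the transmitter GABA, and its exact match lay 18.5 bp from the midpoint, amid G-runs. Trove2 (Ro60) encodes an RNA-binding autoantigen and Uchl5 a deubiquitinase of the proteasome, and their match carries the substitution G8A, where positions are counted from the first C of the consensus and the consensus base is given first. The match of Acin1, which encodes a splicing-associated protein, lies in the minus orientation 6 bp from the midpoint and carries C14A. The match of Anxa5, which encodes a phospholipid-binding annexin, also reads on the minus strand and carries A6T. The peaks over these 4 stretches were 541, 612, 413 and 537 bp wide in the order shown, and thus each was longer than the stretch itself.

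The substitutions in matches with 1 mismatch fell on every fixed position of the consensus, but not evenly. Among 56 such peaks, A6C and G8A were the most frequent with 6 peaks each, followed by C1G and C14T with 5 each. A6 was also replaced in A6T (4 peaks) and A6G (2 peaks). The central G10 and the G7 each were replaced in only 1 peak.

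The rule confines the peak centres to the surroundings of the TSS pair, and within these most lay outside the stretch between the TSSs. Of all 155 peaks, 78 (50.3%, interval 42.5 to 58.1) had their centre within 250 bp of the midpoint between the TSSs, and 149 lay within 1000 bp. The median distance to the midpoint was 240.5 bp, with quartiles of 108 and 460.5 bp. The centre fell between the TSSs in 47 peaks (30.3%, 23.6 to 38.0), on the side of the minus-strand gene in 52 and on that of the plus-strand gene in 56, so neither side held many more. The stretch between the TSSs made up 12.03% of the interval allowed by the rule on average. Per kb of allowed interval, 1.02 centres lay between the TSSs and 0.348 outside them, a 2.92-fold higher density. Because the rule itself admits only centres near the TSSs, these distances and densities are a description within the allowed interval and were not tested.

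**Figure D1:**
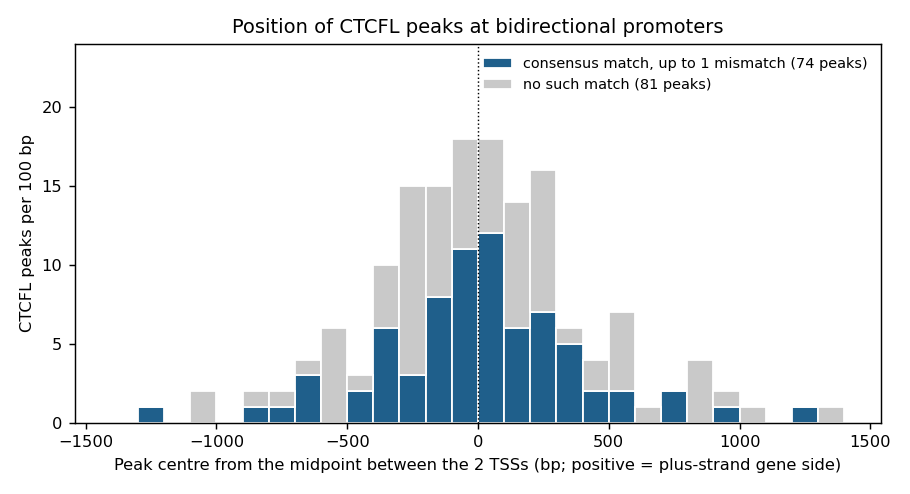
Number of CTCFL peaks per 100 bp (vertical axis) by the distance in bp of the peak centre from the midpoint between the 2 TSSs (horizontal axis, positive towards the plus-strand gene), for all 155 peaks at bidirectional promoters. Blue bars are the 74 peaks with a consensus match at up to 1 mismatch and grey bars, stacked on them, the 81 without. Both lie around 0, where the rule confines the centres, and 78 peaks lie within 250 bp of it.

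The peaks were longer than most of these promoters. The TSSs of the 155 pairs were a median of 198 bp apart (quartiles 105 and 425, range 2 to 994), whereas the median peak was 529 bp wide. A total of 58 peaks covered both TSSs (37.4%, 30.2 to 45.3), 52 covered 1 and 45 covered none, and only 2 peaks lay wholly between the TSSs. The centre was within 100 bp of the nearer TSS in 66 of the 155 peaks (42.6%, 35.1 to 50.5), and the median distance to the nearer TSS was 125 bp, with a range of 0 to 988 bp. These distances were not compared with those of unidirectional promoter peaks, because the rule keeps a centre within 1 kb of the nearer of the TSSs here but allows 2 kb upstream there. The same limit applies to the comparisons of sequence, width and CpG content with unidirectional promoter peaks below, where its part was not tested.

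Consensus matches were found more often in the peaks at the centre of the promoter. Of the 47 peaks centred between the TSSs, 33 held a match (70.2%, 56.0 to 81.3), compared with 41 of the 108 centred outside them (38.0%, 29.4 to 47.4), and these intervals do not overlap. By distance, a match was present in 23 of 36 peaks centred within 100 bp of the midpoint (63.9%, 47.6 to 77.5) and in 12 of 36 centred more than 500 bp away (33.3%, 20.2 to 49.7). Between these, the share was 42.9% at 100 to 250 bp and 51.2% at 250 to 500 bp, so it did not fall steadily with distance. At unidirectional promoters, peaks centred upstream and downstream of the nearest TSS held a match alike often, in 54.1% (51.4 to 56.8) and 53.9% (50.6 to 57.1). The split among the 155 was made after the values were seen and was not tested. The match itself lay between the TSSs in 32 of 74 peaks (43.2%, 32.6 to 54.6), a median of 54.5 bp from the peak centre. Its orientation was mixed. It read on the plus strand in 32 of 74 peaks, and along the nearer gene in 54.1% (42.8 to 64.9), near the 57.4% (54.6 to 60.2) of unidirectional promoter peaks.

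**Figure D2:**
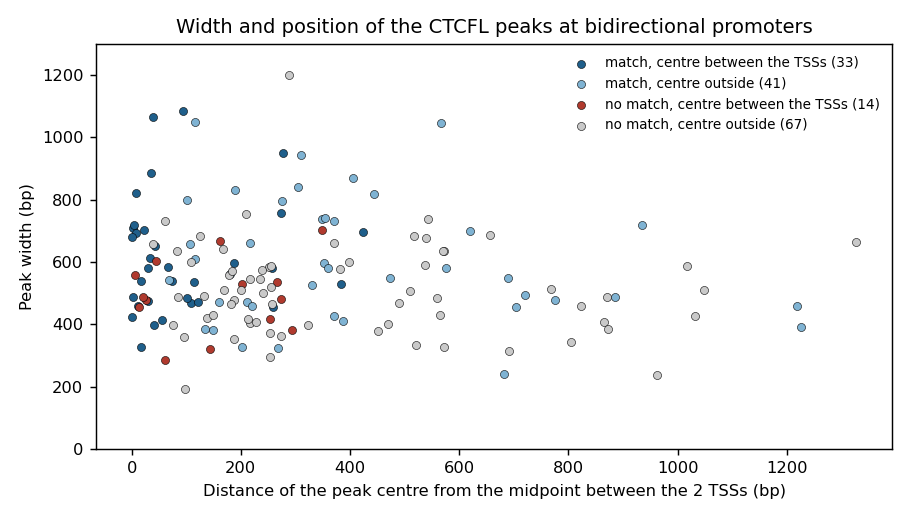
Peak width in bp (vertical axis) against the distance in bp of the peak centre from the midpoint between the TSSs (horizontal axis) for the 155 peaks, 1 point each, coloured by whether the peak holds a consensus match at up to 1 mismatch and whether its centre lies between the TSSs. Of the 47 centred between the TSSs 33 hold a match, compared with 41 of the 108 centred outside them.

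The share of peaks with a match lay between that of all peaks and that of unidirectional promoter peaks. A match at up to 1 mismatch occurred in 47.7% of the 155 peaks (40.0 to 55.6), compared with 43.9% of all 7436 peaks and 54.0% of unidirectional promoter peaks (51.9 to 56.1). The difference from the latter was −6.26 percentage points (95% interval −14.2 to 1.84), which did not pass the two-sided Fisher's exact test (Benjamini-Hochberg adjusted p = 0.161 over 6 comparisons). The 1155 unidirectional promoter peaks with a CpG-rich centre, meaning at least 55% G and C and an observed-to-expected CpG ratio of at least 0.65 over 500 bases, held a match in 59.9% (57.1 to 62.7). Against these the difference was −12.2 points (−20.4 to −3.84) with an adjusted p of 0.0126 by Fisher's exact test, but only part of the 155 is CpG-rich. Between the CpG-rich peaks of both classes, a comparison added after the data were seen, a match stood in 54 of 108 and 692 of 1155, and the difference of −9.91 points (−19.6 to −0.217) had an adjusted p of 0.0775. Exact matches made up 11.6% of the 155 and 13.98% of the unidirectional promoter peaks. A further 64 of the 155 had a best stretch with exactly 2 mismatches, and 17 had none with fewer than 3. Windows of the same widths placed 2 kb to either side of each of the 155 peaks held a match in 3 of 310 cases (0.968%, 0.3297 to 2.81). These windows were not matched to the peaks in base content. At 905 bidirectional promoters without a peak, 16.0% (13.8 to 18.6) of windows of 529 bp at the TSS midpoint held a match.

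More than 1 match was found in 15 of the 155 peaks (9.68%), close to the 11.5% of unidirectional promoter peaks. The Leprel4/Fkbp10 and 1110032A03Rik/Fdxacb1 promoters had 3 matches each within their peaks. Fkbp10 and Leprel4 (P3h4) both encode proteins that act on collagen in the endoplasmic reticulum. Among the 13 with 2 matches was Wrap53/Trp53. Trp53 encodes the tumour suppressor p53, and its peak, 488 bp wide, was centred 885 bp from the midpoint on the Wrap53 side.

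Within the match, position 3, which the consensus leaves free, was mostly G. Here the 74 matches had a G in 54.1% (42.8 to 64.9), an A in 17.6% (10.6 to 27.8), a T in 16.2% and a C in 12.2%. In unidirectional promoter peaks a G stood there in 36.1% and an A in 27.5%, and in the CpG-rich ones among them a G in 44.4% and an A in 20.2%. In peaks outside promoters, by contrast, A was the commonest base with 53.9%, and G made up 15.2%. The difference in the share of A, −9.93 points (−17.4 to 0.571) against unidirectional promoter peaks, did not pass Fisher's exact test (adjusted p = 0.117). Between CpG-rich peaks of both classes it was −7.27 points (−14.5 to 4.53, Fisher's exact test, adjusted p = 0.262). Position 4 was C in 45.9% of the matches, position 5 was C in 36.5% and position 9 was G in 52.7%, next to 42.6%, 48.8% and 55.1% at unidirectional promoters.

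The peaks were broad for this list. Their widths ranged from 192 to 1199 bp with a median of 529 bp and quartiles of 430.5 and 659.5 bp, compared with medians of 514 bp at unidirectional promoters and 425 bp outside promoters. At or above the median of all peaks, 454 bp, were 115 of the 155 (74.2%, 66.8 to 80.4) and 64.7% (62.7 to 66.7) of the unidirectional promoter peaks. This difference of 9.46 points (1.79 to 16.0) passed Fisher's exact test (adjusted p = 0.0363). It lost this call with the upper quartile of widths as the limit (5.34 points, Fisher adjusted p = 0.236) and with TSSs at most 500 bp apart (6.78 points, Fisher adjusted p = 0.161). Against the CpG-rich unidirectional peaks, of which 71.0% were as wide, the difference was 3.20 points (−4.64 to 9.99), and between CpG-rich peaks of both classes it was 8.63 points (−0.287 to 15.7). Neither passed Fisher's exact test (adjusted p = 0.450 and 0.116). How the unlike distances from a TSS allowed in each class bear on these width differences was not tested. Peaks with a match had a median width of 580.5 bp and those without one 491 bp, where a wider peak also gives more sequence in which a match can be found.

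The surroundings of the peak centres were CpG-rich more often. This held for 108 of the 155 (69.7%, 62.0 to 76.4) and for 52.8% (50.7 to 54.8) of unidirectional promoter peaks, a difference of 16.9 points (8.99 to 23.9) that passed Fisher's exact test with an adjusted p of 0.000239. The median G and C content was 62.2% and 60.6% in these classes, and the median CpG ratio 0.769 and 0.704. Unidirectional centres could lie up to 2 kb upstream of a TSS, while those of the 155 lay within 1 kb of the nearer one. The part of this in the CpG difference was not tested. Outside promoters 5.15% of the peaks were CpG-rich.

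**Figure D3:**
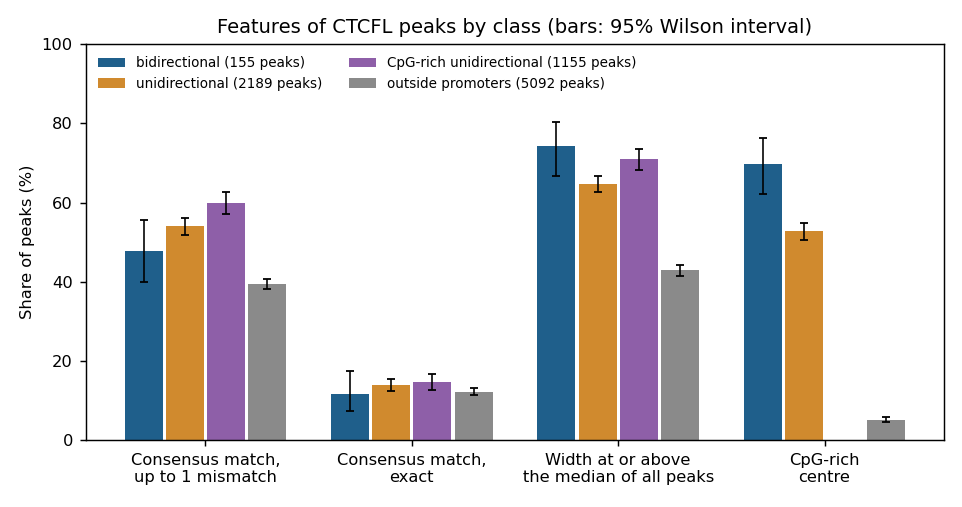
Share of peaks in % (vertical axis) with a consensus match at up to 1 mismatch, with an exact match, with a width at or above the median of all peaks and with a CpG-rich centre, for peaks at bidirectional promoters (155), unidirectional promoters (2189), CpG-rich unidirectional promoters (1155; not drawn for the feature that defines them) and outside promoters (5092). Error bars are 95% Wilson intervals; the 155 stand above unidirectional promoter peaks in width (74.2% and 64.7%) and CpG content (69.7% and 52.8%), while their consensus interval overlaps.

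Recognition sequences of other promoter-binding factors were searched on both strands in the 500 bases around each peak centre. These were CCGGAAG for ETS factors, GCATGCGC for NRF1, AAGATGGCG for YY1, GGGCGGG for SP1, TGACGTCA for CREB-type factors, and the CCAAT and TATAAA boxes. The ETS sequence occurred in 42 of the 155 (27.1%) and in 15.2% of the unidirectional promoter peaks, a difference of 11.9 points (5.31 to 19.5) that passed Fisher's exact test (adjusted p = 0.00175 over 7 sequences). CCGGAAG can also fill the first 7 positions of the CTCFL consensus. Without hits that overlap a consensus match, a step added after the data were seen, 41 peaks (26.5%) and 14.7% remained, with a Fisher adjusted p of 0.00213. Among CpG-rich unidirectional promoter peaks 21.0% held it, and that difference of 6.06 points (−0.775 to 13.9) did not pass Fisher's exact test (adjusted p = 0.226). How the unlike distances from a TSS allowed in each class bear on these ETS differences was not tested. The ETS sequence was also common at bidirectional promoters without CTCFL, where it occurred in 33.3% (30.3 to 36.4) of 905 windows at the TSS midpoint, compared with 31.8% (24.98 to 39.5) of 154 with a peak. The other 6 sequences did not pass the test. SP1 was present in 45.2% of the 155, CCAAT in 41.3%, NRF1 in 7.10%, TATAAA in 5.16%, YY1 in 3.87% and TGACGTCA in 2.58%.

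The annotation holds 1059 bidirectional promoters of 2139 genes by the same rule, and the 154 with a peak are 14.5% of them. Of 20220 protein-coding genes without such a partner, 1971 (9.75%) had a peak within 1 kb of a TSS. The difference of 4.79 points (2.76 to 7.08, odds ratio 1.58) passed Fisher's exact test (adjusted p = 2.32e-06 over 3 comparisons). The interval in which a peak was counted had a median length of 2285 bp at bidirectional promoters and 2001 bp at the other genes. By the mean the order is turned, with 2397 and 2749 bp, since genes may have several TSSs. The part of this length in the difference was not tested. The comparison was repeated within CpG classes, set at the TSS midpoint of bidirectional promoters and at the outermost TSS of other genes. A peak near any TSS of the gene or pair counted, so the class may describe another place than the peak. The classes split promoters at a fixed limit, and CpG content was not matched within them. Among promoters that are not CpG-rich, 40 of 301 bidirectional promoters (13.3%) and 647 of 12328 other genes (5.25%) had a peak, a difference of 8.04 points (4.64 to 12.4) with an adjusted p of 5.34e-07 by Fisher's exact test. In CpG-rich promoters the shares were 114 of 758 (15.0%) and 1324 of 7892 (16.8%), and the difference of −1.74 points (−4.25 to 1.10) did not pass Fisher's exact test (adjusted p = 0.240). Whether the difference itself differed between the CpG classes was not tested.

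**Figure D4:**
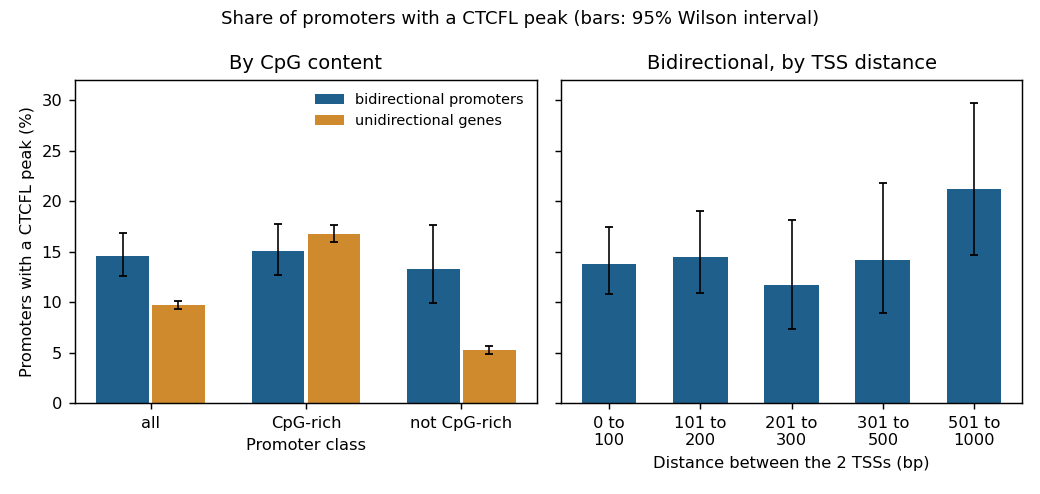
Share of promoters with a CTCFL peak in % (vertical axis), left for bidirectional promoters and for unidirectional genes by CpG class, right for bidirectional promoters by the distance between their TSSs in bp. Error bars are 95% Wilson intervals; the classes stand apart where promoters are not CpG-rich (13.3% and 5.25%) and overlap where they are (15.0% and 16.8%), and the shares by TSS distance have overlapping intervals.

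The share with a peak was 11.7% to 14.5% in the classes with TSSs up to 500 bp apart and higher in the class above. It was 13.8% of 413 promoters at up to 100 bp, 14.5% of 283 at 101 to 200 bp, 11.7% of 137 at 201 to 300 bp and 14.2% of 113 at 301 to 500 bp. At 501 to 1000 bp it was 21.2% of 113 (14.7 to 29.7), with an interval that overlaps those of the other classes. Differences between these classes were not tested, and the interval in which a peak was counted grows with the distance between the TSSs. Bidirectional promoters with and without a peak were alike in base composition, with a median G and C content of 62.2% and 62.4% and CpG-rich shares of 74.0% and 71.2%. Their TSSs were a median of 142 and 133 bp apart, and over 500 bp apart in 15.6% and 9.83%. They differed more in the consensus. In a window of 529 bp around the midpoint, placed without regard to the peak, 33.8% (26.8 to 41.5) of the promoters with a peak and 16.0% (13.8 to 18.6) of those without held a match at up to 1 mismatch. Exact matches stood in 10 of 154 (6.49%, 3.57 to 11.5) and in 5 of 905 (0.552%, 0.236 to 1.29), so 5 promoters with an exact match had no peak in the list.

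Among the 20 chromosomes, with 20 to 97 bidirectional promoters each, the bound share ranged from 1.92% to 23.8%, next to 14.5% overall. The extremes named here were picked after the values were seen, and differences between chromosomes were not tested. Chromosome 1 had a peak at 15 of its 63 bidirectional promoters (23.8%) and chromosome 11 at 17 of 97 (17.5%), whereas chromosome 13 had a peak at only 1 of 52 (1.92%), Cage1/Riok1. Cage1 encodes a cancer/testis antigen and Riok1 an atypical kinase. Of these 52 promoters, 13 belong to histone genes, none of which had a peak. The X chromosome held 5 of the peaks at its 27 promoters, among them Apex2/Pfkfb1, where Apex2 encodes an apurinic endonuclease of base excision repair.

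The widest peak of the 155 covered the promoter of Efnb2, which encodes the transmembrane ligand ephrin-B2, and of the predicted gene 4921522P10Rik. It was 1199 bp wide (chr8:8661210-8662408) and its best stretch had 2 mismatches, the only member among the 10 widest without a match at 1 mismatch. Next in width were Gm10644/Asf1b with 1084 bp, where Asf1b encodes a histone chaperone, and Rasal2/2810025M15Rik with 1067 bp, where Rasal2 encodes a Ras GTPase-activating protein. The Cox15/Cutc peak was 1049 bp wide. Cox15 encodes an enzyme of haem A synthesis for cytochrome oxidase. Abhd14a/Abhd14b (1046 bp) joins paralogous hydrolase genes with TSSs 962 bp apart.

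The remaining 5 of the 10 widest were between 949 and 840 bp. Dcaf6/Brp44 (949 bp) has in Brp44 (Mpc2) a subunit of the mitochondrial pyruvate carrier, and Ppil3/Nif3l1 (942 bp) has in Ppil3 a peptidyl-prolyl isomerase. Skiv2l/Rdbp (887 bp) pairs a helicase of cytoplasmic RNA decay with Rdbp (Nelfe), a subunit of the negative elongation factor of RNA polymerase II. Lyzl4/Vipr1 (870 bp) pairs a lysozyme-like gene of the male reproductive tract with the receptor of vasoactive intestinal peptide. Exd1/1500003O03Rik (840 bp) holds Exd1, which acts in the piRNA pathway of germ cells, and 1500003O03Rik (Chp1), a calcineurin B-like protein. In these 10 peaks the centre lay between the TSSs in 4 and on either side in 6. At the other end, the narrowest peak was that of Tctn3/Entpd1 with 192 bp, and its best stretch had 3 mismatches.

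**Figure D5:**
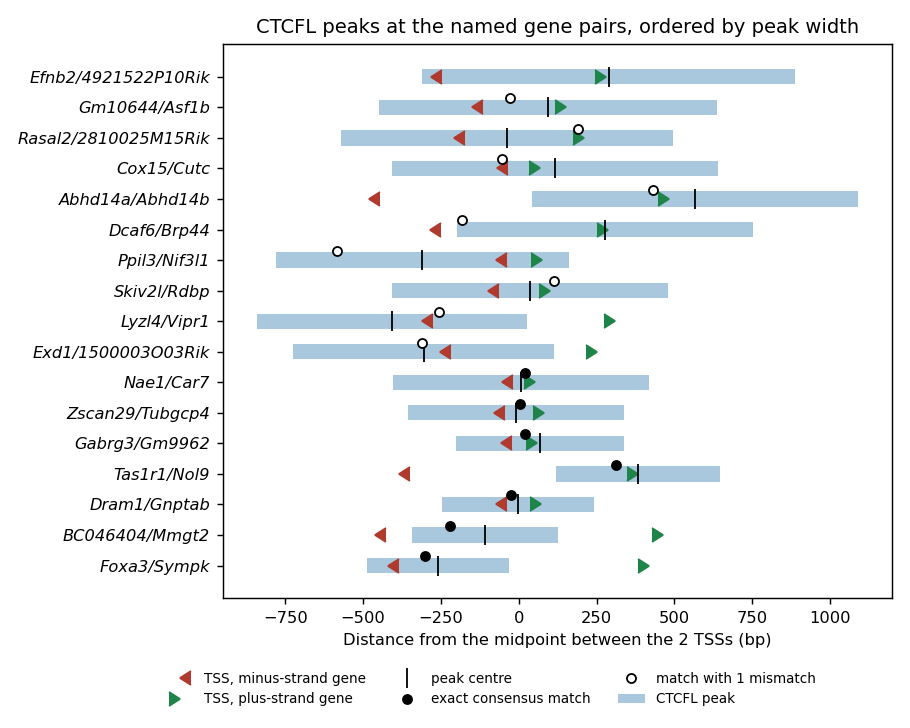
CTCFL peaks (pale bars) at the 17 named gene pairs, from the widest at the top to the narrowest, drawn to scale in bp from the midpoint between the 2 TSSs (horizontal axis), with both TSSs (triangles), the peak centre (vertical tick) and the best consensus match, filled when exact and open with 1 mismatch (none is drawn for Efnb2/4921522P10Rik, whose best stretch has 2). The 10 upper pairs are the widest peaks, from 1199 to 840 bp; the 7 lower ones hold an exact match between their TSSs and are 456 to 823 bp wide.

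Peaks with an exact match between the TSSs were not among the 10 widest. After Nae1/Car7, Zscan29/Tubgcp4 had a 694 bp peak with its exact match 3 bp from the midpoint. Tubgcp4 encodes a component of the gamma-tubulin ring complex. Dram1/Gnptab had a 489 bp peak centred 3 bp from the midpoint on the Dram1 side, and both genes serve lysosomes, Dram1 as a p53 target in autophagy and Gnptab in the tagging of lysosomal enzymes. Gabrg3/Gm9962 measured 541 bp and Tas1r1/Nol9 528 bp. Tas1r1 encodes a taste receptor subunit and Nol9 a kinase of ribosomal RNA processing. BC046404/Mmgt2 measured 468 bp. Foxa3/Sympk, with 456 bp, pairs a forkhead factor of endodermal tissues with symplekin of the polyadenylation machinery, and its TSSs are 839 bp apart. Except for BC046404/Mmgt2, Foxa3/Sympk and Tas1r1/Nol9, the match in these pairs lay within 25 bp of the midpoint.

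Gene groups that often share bidirectional promoters were then compared with the 14.5% of all such promoters. Of 44 promoters with a gene of DNA repair or replication, 4 had a peak (9.09%, 3.59 to 21.2). They were Mcm7/Ap4m1, with a subunit of the replicative helicase (704 bp), Prim2/1700001G17Rik, with the large primase subunit (688 bp), Mms19/Ubtd1, with an iron-sulphur assembly factor for repair enzymes (636 bp), and Hscb/Chek2, with the checkpoint kinase CHK2 and 2 peaks of 484 and 343 bp. None of these had an exact match. Mbd4/Ift122 (499 bp) and Apex2/Pfkfb1 (426 bp) also hold repair genes, a glycosylase and an endonuclease, but were not on the list as written and are named after their values were seen. The mitochondrial ribosome had 4 of 23 (17.4%, 6.98 to 37.14), namely Mrps12/Sars2, Mrpl40/Hira, Mrps18b/Ppp1r10 and Ncapd2/Mrpl51.

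Aminoacyl-tRNA synthetases, which charge tRNAs with amino acids, had a peak at 3 of 8 promoters (37.5%, 13.7 to 69.4), which were Mrps12/Sars2 (741 bp), Hars/Hars2 (580 bp) and Kars/Terf2ip (465 bp). In Hars/Hars2 the cytosolic and the mitochondrial histidyl-tRNA synthetases start 26 bp apart, and the peak was centred 360 bp to the Hars2 side. The interval spans the 14.5% of all bidirectional promoters. Ears2, the mitochondrial glutamyl-tRNA synthetase, also had a peak (Ears2/Ubfd1, 657 bp) but was left out of the list as written, and it is named here after its value was seen.

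Genes of RNA production and chaperones stood near the share of all bidirectional promoters. Splicing and RNA processing genes had a peak at 4 of 37 promoters (10.8%, 4.29 to 24.7), the widest at Dtl/Ints7 (818 bp, exact match), where Ints7 is a subunit of the Integrator complex. The others were Ddx28/Dus2l, Ccdc157/Sf3a1 and Noc4l/Ddx51. General transcription and Mediator genes had 3 of 25 (interval 4.17 to 29.96%), at Tmx2/Med19, Polr2l/Tspan4 and 6330439K17Rik/Polr3f. Chaperone genes had 3 of 22 (13.6%, 4.75 to 33.3), at Dnajc7/Nkiras2, 1700040I03Rik/Cct7 and Dnajc17/Zfyve19.

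The remaining groups had 1 peak or none. Zinc finger genes had 1 of 20 (Zfp319/AA960436, interval 0.888 to 23.6%) and cell cycle genes 1 of 22 (Cdc123/Nudt5, 0.807 to 21.8%). Developmental transcription factors had 1 of 5 (interval 3.62 to 62.4%), which was Foxa3/Sympk. No peak was listed at 25 promoters of nuclear oxidative phosphorylation genes, for which the interval reaches up to 13.3%, nor at 14 of histone genes and 14 of cytosolic ribosomal proteins (each up to 21.5%), 9 of the proteasome (up to 29.9%) and 4 of meiosis and germ cell genes (up to 49.0%). These counts hold for the lists as written, which were not complete. Left out were Exd1 and other genes active in testis that did have a peak, such as Tssk3, Fank1 and Ggnbp1. Genes of mitosis with a peak, such as Ncapd2, Kntc1, Tacc3, Haus8 and Cep57, and the zinc finger gene Zscan29 were also left out. So were genes of respiratory-chain assembly, electron transfer and ubiquinone synthesis with a peak, such as Cox15, Cox11, Sco1, Etfdh and Coq9. All of these are named after their values were seen. None of 24 pluripotency genes starts at a bidirectional promoter. The lists were not tested against the 14.5% of all bidirectional promoters.

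Among textbook head-to-head pairs that met the rule, Hars/Hars2 had a peak. Atm/Npat, Brca1/Nbr1, Hspd1/Hspe1, Surf1/Surf2, Prkdc/Mcm4 and Psmb9/Tap1 had none. Their TSSs lay 21 to 466 bp apart, within the range of the bound promoters, and the 529 bp around their midpoints held no stretch with fewer than 2 mismatches to the consensus. The same was true of the window at Hars/Hars2, whose match lay 499.5 bp from the midpoint, so this did not separate the pair with a peak from the others.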

How the data were processed

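ChIP-sequencing was done in 3 samples, of which the V5 library of induced cells gave the deposited peak list. The authors sequenced 36-bp reads, kept unique alignments and called peaks with MACS against non-induced cells. Their methods name both ELAND and BOWTIE, and which of them made this list is not given in the sources used here. The deposited values are peak start and end positions on mm9 and no count, height or p-value, so depth is unknown; starts were read as counted from 0. The columns were used as they stand, and 0 columns of per-sample values were left unmapped.

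Protein-coding TSSs were taken from GENCODE vM1 on NCBIM37, the same build as mm9. The consensus was searched over each whole peak on both strands. Shares were compared over peaks or promoters with two-sided Fisher's exact tests (scipy 1.17.1) at an adjusted p of 0.05, with Wilson intervals for shares and Newcombe intervals for differences, and sequences were read with pysam 0.24.0. The scripts were tested on simulated data. Members, gene lists and comparisons were chosen with earlier results of these data known.

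Named were the genes that the study named, the 10 widest peaks, exact matches between the TSSs (the 10 nearest the midpoint), up to 4 widest peaks per gene list, and classic pairs, of which 1 is not reported here. Other pairs are named for a stated reason, after their values were seen. The printed sequences go beyond the first plan, which allowed only stretches between TSSs for these named pairs. The alternatives tried concern the TSS distance, the TSSs used, the mismatches, the width limit, the CpG rule and the peaks compared.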

Additional observations from a re-analysis of the deposited data

How the results depend on the processing

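Of 37 alternatives over 8 results, 24 kept direction and side of the threshold or stayed within 1.5 times the count. The number of peaks was 97 when the centre had to lie within 500 bp of both TSSs, and 109 to 180 under the other rules. The consensus difference in points was −12.2 against CpG-rich unidirectional peaks and −10.7 with TSSs at most 500 bp apart, both past the threshold, and 3.92 in the opposite direction against all other peaks. The width difference lost its call with the upper quartile as limit (5.34), against CpG-rich unidirectional peaks (3.20), with TSSs at most 500 bp apart (6.78) and, added after seeing the data, between CpG-rich peaks of both classes (8.63). The A share at position 3 passed against all other peaks (−26.6). The promoter difference was −1.74 in CpG-rich promoters alone. The share between the TSSs was 43.2% for match centres and 22.0% with the outermost TSS of each gene. Against CpG-rich unidirectional peaks, a comparison added later, 0 of the 7 other sequences passed Fisher's exact test (raw p under 0.05 for SP1 only). In all of these the cause was not tested. No paired analysis was possible because there was 1 library per condition and the peak list came from 1 of them. Leaving out a replicate was not possible either. Unknown depth and a fixed peak threshold limit all statements on promoters without a peak.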
